A study of Mus musculus with 14 samples.

Results

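The 42 genes described here encode the T cell receptor signalling machinery, from the chains of the receptor complex to the transcription factors and brakes that it acts on. Their regulatory regions were read as windows of open chromatin in Treg cells with ATAC-seq, an assay whose transposase cuts and tags accessible DNA more readily than packed DNA. A window was assigned to a gene when that gene had the nearest protein-coding start site to the centre of the window, within 100 kb. All 42 genes had windows, 1674 of the 240778 in the count table, each 201 bp long, and joining overlapping windows left 1127 separate regions. Of the 1674 windows, 184 lay within 1 kb of a start site and are called start-site windows, and the other 1490 are called distal.

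Treg cells came from the spleen and lymph nodes of mice that carried the Foxp3AID allele, in which Foxp3 is fused to an auxin-inducible degron and expressed with a ZsGreen reporter and Cre recombinase. In R26TIR1(F74G) mice, that Cre removes a stop cassette and so switches on TIR1(F74G), the plant-derived ligase subunit that binds 5-ph-IAA and directs degradation of the fusion protein, in cells that express Foxp3. R26WT mice lack TIR1(F74G) and served as controls, and 5-ph-IAA was given to both genotypes, for 3 days (4 R26TIR1(F74G) and 4 R26WT mice) or for 7 days (3 and 3). The mice of a group are separate animals by their names in the labels, and neither their sex nor the activation state of the cells is labelled. R26TIR1(F74G) cells were also sorted on mCherry, which R26WT cells do not express, so genotype and that gate cannot be told apart.

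Ligation of the T cell receptor leads the kinases Lck and Fyn to phosphorylate the CD3 and zeta chains, which recruit the kinase Zap70. Zap70 phosphorylates the adaptors Lat and SLP-76 (encoded by Lcp2), and the complex built on them opens a calcium arm, a Ras arm and an NF-kB arm, while phosphatases, ubiquitin ligases and inhibitory receptors restrain the signal. Treg cells depend on this receptor for their activation and suppressive function, and Foxp3 is a forkhead transcription factor that works within a chromatin landscape largely shared with other T cells.

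The libraries held between 5653289 and 20184487 counts in windows, and no pair of libraries was identical. R26TIR1(F74G) replicate 1 on day 3 and R26WT replicate 3 on day 7 (6348754 counts) were the shallowest. Windows within 1 kb of any start site took 47.3% to 51.3% of the normalized counts in R26TIR1(F74G) mice on day 3 and 49.8% to 51.9% in R26WT mice on day 3, and 50.1% to 51.3% and 47.3% to 51.0% on day 7. Among markers of the labelled cell type, 4 of 6 Treg genes had a start-site window (Il2ra, Ctla4, Ikzf2 and Il2rb, but not Foxp3 or Tnfrsf18), as did all 4 T cell genes. Of markers of other cells, 1 of 6 B cell genes (Ebf1, with Cd79a, Ms4a1, Pax5 and Cd22 among those that lacked one), 2 of 6 myeloid genes (Cd14 and Itgam), 0 of 3 NK cell genes and both CD8 T cell genes had such a window. The summed level of these windows ranged from 2.76 to 5.22 CPM (counts scaled to a common normalized library size) for B cells and from 5.63 to 6.11 for myeloid cells in R26TIR1(F74G) mice on day 3, against 2.51 to 3.76 and 5.13 to 6.23 in R26WT mice on day 3. The same sums on day 7 were 1.60 to 3.69 and 4.59 to 6.43 CPM in R26TIR1(F74G) mice and 2.52 to 5.55 and 4.20 to 5.88 CPM in R26WT mice. The CD8 T cell sum was higher, at 11.3 to 15.5 and 12.55 to 14.4 CPM on day 3 and 12.75 to 15.35 and 11.85 to 15.05 CPM on day 7 in R26TIR1(F74G) and R26WT mice, most of it from Cd8b1, whose mean of 12.5 CPM exceeded that of Cd3e. Sums of resting Treg genes were 80.1 to 113.8 and 89.9 to 105.5 CPM on day 3 and 97.5 to 98.45 and 96.1 to 110.3 CPM on day 7 in the same order, and those of activated Treg genes lay between 22.2 and 31.9 CPM in all 4 groups. The part of other cells in the results below was not tested.

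Start sites of the signalling genes ranged from among the most accessible in the genome to weakly accessible ones. For each gene, the level given is the CPM of its most accessible start-site window, averaged over the 14 mice, and since all windows have the same length these levels compare between genes. A start-site window was present for 38 of the 42 genes, and Grap2, Ptpn6, Cbl and Sla had distal windows only. The median of the 38 levels was 17.1 CPM, close to the median of 17.3 CPM over all 12016 genes with such a window, and 19 of the 38 were below the 50th percentile of genes. The highest levels belonged to Bcl10, which links the receptor to NF-kB, at 72.3 ± 6.06 CPM (SD, n = 14) and to Cblb, a ubiquitin ligase that restrains signalling, at 67.3 ± 5.31 CPM (SD, n = 14). The lowest were those of Lcp2 at 5.05 ± 0.723 CPM (SD, n = 14) and of Ubash3b, a phosphatase that acts on Zap70, at 5.68 ± 0.915 CPM (SD, n = 14).

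The receptor chains themselves sat low. Cd247, Cd3g, Cd3e and Cd3d had 11.7 ± 1.904, 11.6 ± 1.704, 11.2 ± 1.68 and 8.09 ± 1.200 CPM at the start site (SD, n = 14), and the first 3 levels differed by less than their spread between mice. In R26WT mice, Cd3e read 14.5, 12.3, 12.1 and 12.04 CPM on day 3 and 12.1, 11.9 and 10.05 on day 7. In R26TIR1(F74G) mice it read 11.7, 11.3, 7.304 and 10.1 CPM on day 3 and 9.47, 11.2 and 10.5 on day 7. Every R26TIR1(F74G) mouse on day 3 was below every R26WT mouse on day 3, whereas the groups overlapped on day 7. Neither difference passed the edgeR quasi-likelihood test with Benjamini-Hochberg adjustment over all windows. The log2 fold change of Cd3e was -0.35 on day 3 (adjusted p = 0.590, by edgeR) and -0.15 on day 7 (adjusted p = 0.932, by edgeR). The most accessible region assigned to a receptor chain was not a start site but a window 4912 bp downstream of the Cd3d start, at 30.2 ± 4.19 CPM (SD, n = 14).

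Among the kinases next to the receptor, Fyn (43.4 ± 3.21 CPM, SD, n = 14) was well above Zap70 (17.6 ± 2.796) and Lck (14.7 ± 2.25) at the start site. Lck is transcribed from a proximal and a distal promoter, and its most accessible distal window lay 1721 bp upstream of a start and reached 23.7 ± 3.21 CPM (SD, n = 14). Of the adaptors, Themis, which takes part in thymocyte selection, had 17.6 ± 2.701 CPM, Lat 15.5 ± 2.93, Grb2 10.5 ± 1.69 and Trat1 10.3 ± 1.26 (SD, n = 14), with Lcp2 lowest. Effectors included the phospholipase gene Plcg1 (34.4 ± 3.67 CPM), the Ras activators Rasgrp1 (29.8 ± 2.84) and Sos1 (21.7 ± 1.76), Nras itself (20.1 ± 2.13), the exchange factor gene Vav1 (18.1 ± 2.11) and the NF-kB adaptor Malt1 (49.7 ± 5.93). Prkcq, which encodes protein kinase C theta, was the least accessible effector at the start site (6.21 ± 0.985 CPM) but had 105 windows, the most of any of the 42 genes. Its most accessible one, 45926 bp downstream of the start and inside the gene, reached 19.8 ± 3.598 CPM (SD, n = 14).

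In the calcium arm, the calcineurin subunit genes Ppp3ca, Ppp3r1 and Ppp3cb had 53.8, 44.4 and 22.4 CPM, and of the NFAT genes that calcineurin activates, Nfatc3 (54.5 CPM) stood over Nfatc2 (10.3) and Nfatc1 (7.27). Csk, the kinase that inactivates Lck and Fyn, its membrane anchor Pag1 and the phosphatase gene Ptpn22 lay between 21.3 and 22.5 CPM, and Ptprc, which encodes CD45, had 10.3 CPM. Besides Cblb, the restraining genes with a start-site window were the diacylglycerol kinase genes Dgkz (26.6 CPM) and Dgka (10.9), the inhibitory receptor genes Cd5 (16.6) and Cd6 (6.16), Ubash3a (9.64), the adaptor gene Sla2 (8.99) and Ubash3b. The distal window was the more accessible of the pair in 15 of the 36 genes that had both kinds (41.7%), against 23.6% of the 9349 such genes in the genome. The distal level is the highest over the windows of a gene, and member genes had a median of 31.5 windows against 8 over all genes, so these shares are not matched for the number of windows. Between mice, the coefficient of variation of the 38 start-site levels was 7.4% to 20.9%, with a median of 12.4%.

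**Figure D1:**
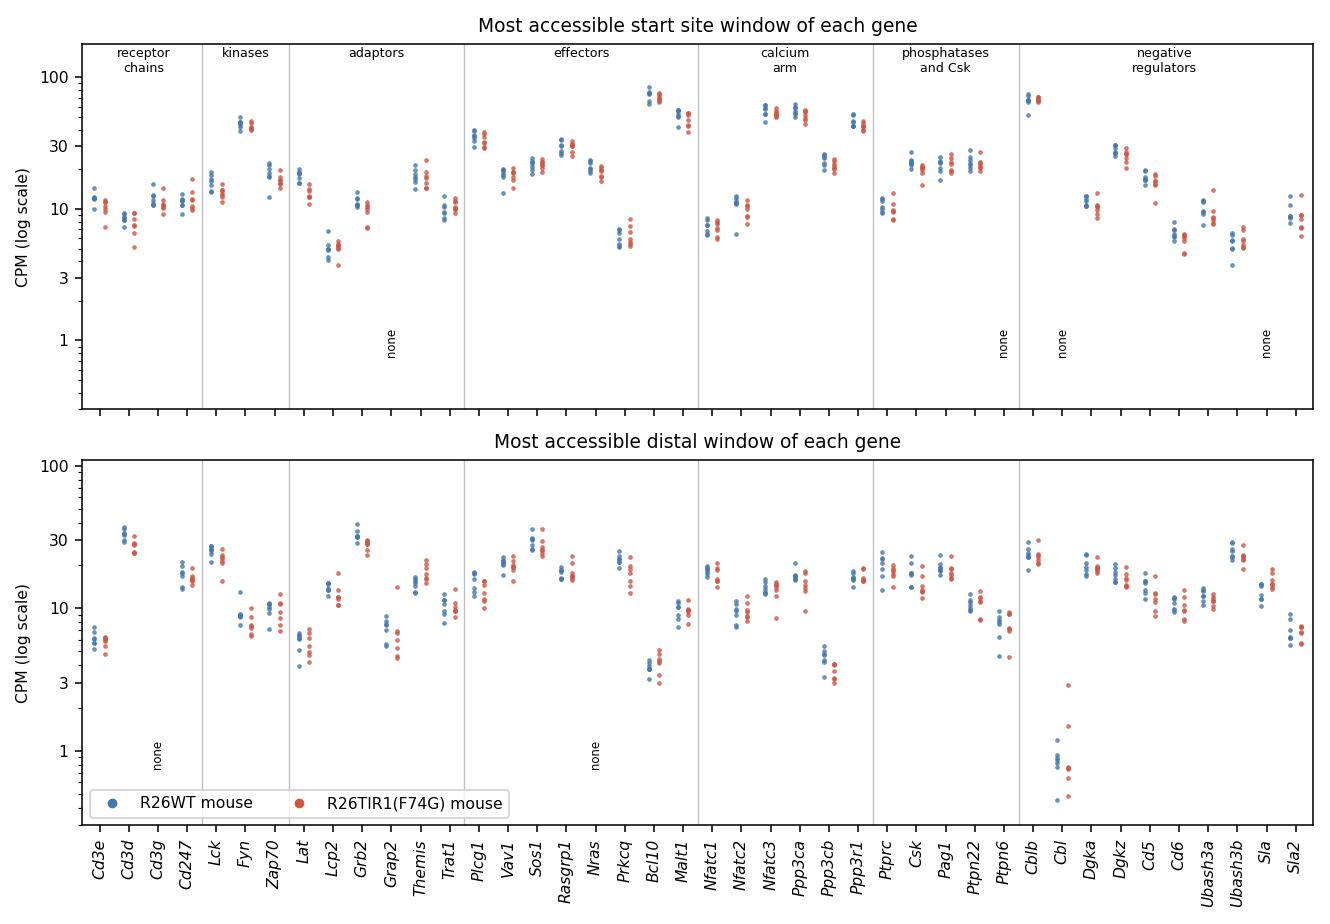
Accessibility of the most accessible start-site window (top) and distal window (bottom) of each of the 42 genes, in CPM on a log scale, with a point for each R26WT (blue) and R26TIR1(F74G) (red) mouse and genes ordered by role. Bcl10 and Cblb are highest at the start site, with means of 72.3 and 67.3 CPM, and the points of both genotypes overlap for nearly every gene. Genes without a window of that kind are marked none.

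Promoter sequence was available from RefSeq (GRCm38.p6, 250 bases before to 50 after each transcript start) for 36 of the 42 genes, as 51 promoters. CpG dinucleotides in the 300 bases ranged from 0 to 43 over the 33 genes with both a promoter and a start-site level, with a median of 8, against a median of 21 over 9820 genes of the genome. Across these 33 genes, the CpG count and the level correlated with Spearman's rho of 0.59 (Pearson's r with the log2 level 0.59), and over the 9820 genes with rho of 0.27. Genes are not independent replicates, and base composition also enters the recovery of DNA in sequencing, so this is a description. The 250 bases before the start of 2 receptor chain genes and of the 2 genes with the highest levels are shown to compare them, with every CpG in capitals.
Cd3e (chr9:45009612-45009861, minus strand): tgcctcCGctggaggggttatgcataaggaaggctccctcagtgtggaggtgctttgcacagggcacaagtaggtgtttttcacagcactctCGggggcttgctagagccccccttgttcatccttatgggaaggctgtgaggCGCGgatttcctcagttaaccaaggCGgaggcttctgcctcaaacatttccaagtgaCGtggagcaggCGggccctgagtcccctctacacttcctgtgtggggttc
Cd3g (chr9:44980432-44980681, minus strand): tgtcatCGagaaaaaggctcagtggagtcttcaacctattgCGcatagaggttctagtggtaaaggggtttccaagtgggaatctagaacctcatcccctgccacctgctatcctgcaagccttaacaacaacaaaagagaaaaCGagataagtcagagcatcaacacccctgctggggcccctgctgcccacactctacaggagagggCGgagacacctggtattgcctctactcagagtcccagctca
Bcl10 (chr3:145924012-145924261, plus strand): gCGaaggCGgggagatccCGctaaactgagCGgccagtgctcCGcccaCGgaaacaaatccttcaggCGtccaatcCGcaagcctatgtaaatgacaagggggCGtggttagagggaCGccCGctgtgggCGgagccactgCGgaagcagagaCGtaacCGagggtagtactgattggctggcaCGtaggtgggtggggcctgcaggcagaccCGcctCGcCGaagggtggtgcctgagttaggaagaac
Cblb (chr16:52031299-52031548, plus strand): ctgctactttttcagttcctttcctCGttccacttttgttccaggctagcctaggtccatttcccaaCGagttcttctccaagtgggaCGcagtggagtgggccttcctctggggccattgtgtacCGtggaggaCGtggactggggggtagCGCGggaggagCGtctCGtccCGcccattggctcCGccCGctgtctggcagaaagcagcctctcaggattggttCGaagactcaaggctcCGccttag
The Cd3e and Cd3g stretches hold 7 and 4 CpG dinucleotides, and those of Bcl10 and Cblb hold 19 and 14. Among the departures from the pattern were Prkcq, with 37 CpG dinucleotides in its 300 bases and only 6.21 CPM, and Dgkz, with 43 and 26.6 CPM.

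**Figure D2:**
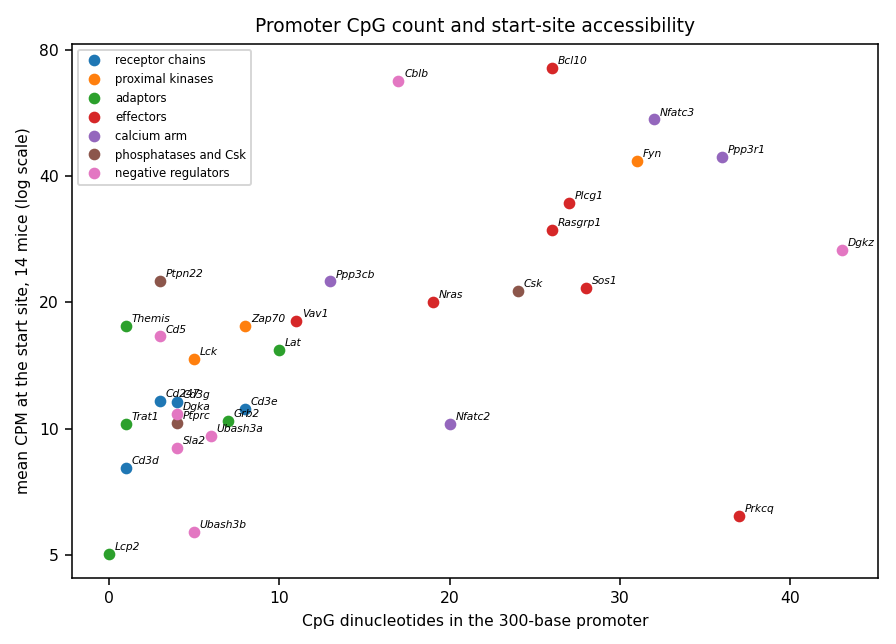
Number of CpG dinucleotides in the 300-base promoter (horizontal axis) against the mean CPM of the most accessible start-site window over 14 mice (vertical axis, log scale), with a point for each of 33 genes coloured by role. The receptor chains (blue) hold at most 8 CpG dinucleotides and lie between 8.09 and 11.7 CPM. Bcl10, Nfatc3, Ppp3r1 and Fyn have 26 or more and lie over 40 CPM. Dgkz, Plcg1, Prkcq, Rasgrp1 and Sos1 also have 26 or more and lie below 40 CPM.

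Since Foxp3 is a forkhead factor, the promoters were searched on both strands for the forkhead letters TGTTTAC. They occurred in 4 of the 51 promoters (7.84%), belonging to Grap2, Nfatc2, Nfatc3 and Nras, and in 3.65% of all 32851 promoters. The Runx letters TGTGGTT occurred in 3 (5.88%, Lck, Ptpn22 and Sla2, against 5.27% of all), the AP-1 letters TGANTCA in 0 (against 7.81%), the Ets letters CCGGAAG in 1 (1.96%, Bcl10, against 8.86%) and the NFAT letters TGGAAAA in 1 (1.96%, Ubash3b, against 6.73%). A match describes letters in the promoter and not binding. The stretches of Nfatc2 and Nras are shown with the forkhead match, here on the opposite strand, in capitals.
Nfatc2 (chr2:168601658-168601907, minus strand): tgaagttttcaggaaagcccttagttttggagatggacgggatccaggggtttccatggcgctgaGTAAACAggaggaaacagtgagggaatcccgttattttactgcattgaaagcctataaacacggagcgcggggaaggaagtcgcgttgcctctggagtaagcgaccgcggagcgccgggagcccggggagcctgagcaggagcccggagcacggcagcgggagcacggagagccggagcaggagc
Nras (chr3:103058035-103058284, plus strand): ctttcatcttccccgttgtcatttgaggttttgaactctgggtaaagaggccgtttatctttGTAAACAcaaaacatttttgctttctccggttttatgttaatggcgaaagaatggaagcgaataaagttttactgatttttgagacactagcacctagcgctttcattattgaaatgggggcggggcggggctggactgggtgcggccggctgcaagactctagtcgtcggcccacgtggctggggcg
The Nras match begins 188 bases before the start and lies outside the most accessible start-site window, which runs from 103058153 to 103058354. Nras had 18.9, 20.04, 20.5 and 22.2 CPM at that window in R26WT mice on day 3 and 20.3, 19.9, 17.5 and 16.2 CPM in R26TIR1(F74G) mice. On day 7 it had 23.8, 23.3 and 19.5 CPM in R26WT mice and 17.8, 19.6 and 21.2 CPM in R26TIR1(F74G) mice. The groups overlapped on both days, and the log2 fold change was -0.17 over both days (95% interval -0.35 to 0.01, edgeR quasi-likelihood test with Benjamini-Hochberg adjustment over all windows, adjusted p = 0.755).

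The main comparison asked whether loss of Foxp3 protein changed the accessibility of these genes, on each day and with both days in a single fit with day as a term. In the edgeR quasi-likelihood test at an adjusted p under 0.05, 0 member windows passed in any of these 3 comparisons. On day 7 that was 0 of 1664 windows tested, where 0.00463% of all 237811 were called. The lowest adjusted p among members was 0.253, and DESeq2 also called 0. On day 3 it was 0 of 1653, where 0% of all 235515 were called, and DESeq2 also called 0. With both days it was 0 of 1674, where 0.0112% of all 240778 were called, and the lowest adjusted p was 0.0603. In this comparison DESeq2 called 6 member windows, described below, where it called 0.505% of the 30712 windows to which it gave an adjusted p.

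Counts at an unadjusted p under 0.05 were near those of the whole table. On day 7, 117 of 1664 member windows reached it (7.03%), against 5.95% of all windows. Of these, 55 were higher in R26TIR1(F74G) mice (3.31%, against 2.75%) and 62 lower (3.73%, against 3.2%). On day 3, 110 of 1653 reached it (6.65%, against 7.55%), and here 85 were lower (5.14%, against 3.62%) and 25 higher (1.51%, against 3.93%). With both days, 110 of 1674 reached it (6.57%, against 6.73%), with 75 lower (4.48%, against 3.57%) and 35 higher (2.09%, against 3.16%). The median log2 fold change of all member windows was 0.01 on day 7, -0.05 on day 3 and -0.03 with both days, against medians of -0.01, 0.01 and 0.00 over all windows.

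Both kinds of window leaned towards lower values on day 3. Of 1469 distal windows of members tested, 63 were lower at an unadjusted p under 0.05 (4.29%) and 23 higher (1.57%), against 2.82% and 4.48% of all distal windows, with median log2 fold changes of -0.04 and 0.03. Of 184 start-site windows of members, 22 were lower at an unadjusted p under 0.05 (11.96%) and 2 higher, against 6.32% lower and 2.08% higher of all 53390 start-site windows tested, with median log2 fold changes of -0.10 and -0.06. On day 7 the same windows leaned the other way, with 4 lower (2.17%, against 2.03% of all start-site windows) and 14 higher (7.61%, against 3.57%) and a median of 0.09, against 0.03. Leaving out each mouse in turn gave 12 to 25 lower start-site windows on day 3, and the 12 came without R26TIR1(F74G) replicate 3. That library had the lowest share of normalized counts at start sites on day 3 (47.3%), and the part of this share in the result was not tested. On day 7 the lowest share was that of R26WT replicate 3 (47.33%, the other R26WT mice 50.87% and 51.03%). This library also enters the interaction and the comparison of days in R26WT mice below. Its part in the counts of start-site windows was not tested. Overlapping windows share reads, so these counts are not of independent regions.

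The fits bound the changes at start sites, with a spread for each window that is estimated partly from other windows. For the most accessible start-site window of each of the 38 genes, the 95% interval of the fold change lay within 1.5-fold in either direction for 35 genes on day 7, 29 on day 3 and 37 with both days, and within 2-fold for all 38 in each of the 3 comparisons. Their log2 fold changes ran from -0.41 (Lat) to 0.37 (Ubash3b) on day 7 and from -0.47 (Lat) to 0.08 (Trat1) on day 3. For Bcl10 they were -0.07 on both days (95% intervals -0.30 to 0.15 on day 7 and -0.29 to 0.14 on day 3). For Zap70 the interval with both days was -0.37 to 0.03, and for Fyn it was -0.24 to 0.08.

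**Figure D3:**
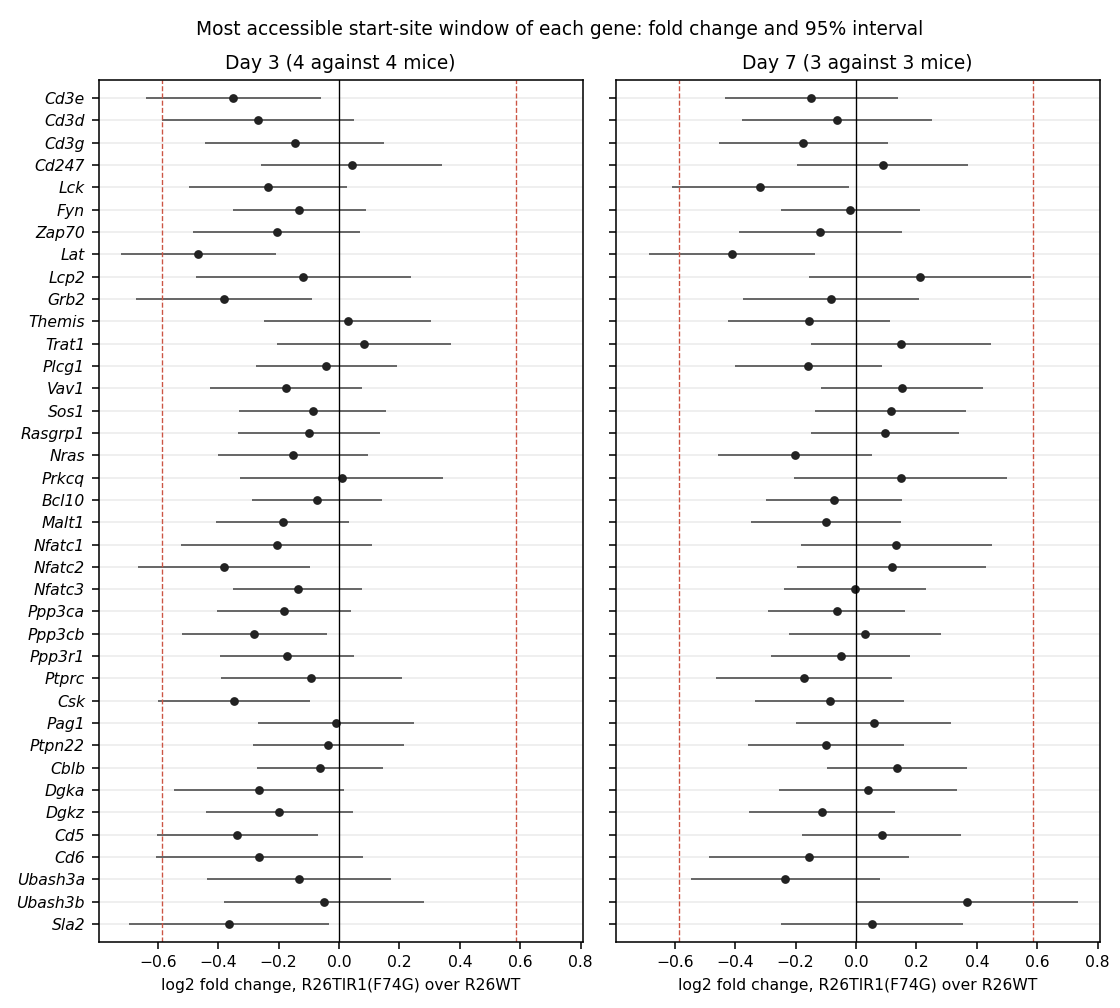
Log2 fold change, R26TIR1(F74G) over R26WT, of the most accessible start-site window of 38 genes on day 3 (left) and day 7 (right), with points for estimates and bars for 95% intervals from edgeR's quasi-likelihood fit. The dashed lines mark 1.5-fold, within which the whole interval lies for 29 genes on day 3 and 35 on day 7, and Lat lies lowest on both days at -0.47 and -0.41.

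The adaptor Lat had the most regular difference among start sites. Its window on chromosome 7 from 126369452 to 126369653 spans the start, which lies 16 bp from its centre. In R26WT mice it read 18.96, 20.2, 18.6 and 17.2 CPM on day 3 and 15.8, 15.9 and 18.4 on day 7. In R26TIR1(F74G) mice it read 12.2, 13.8, 15.4 and 12.5 CPM on day 3 and 10.96, 14.1 and 12.2 on day 7. All 7 R26TIR1(F74G) mice were below all 7 R26WT mice. The log2 fold change was -0.47 on day 3 (standard error, SE, 0.13, adjusted p = 0.423, by edgeR), -0.41 on day 7 (SE 0.14, adjusted p = 0.687) and -0.44 with both days (SE 0.09, adjusted p = 0.0873, by edgeR). Leaving out each mouse in turn left it between -0.48 and -0.41, with adjusted p from 0.0575 to 0.278. The 250 bases before the Lat start are shown with the 85 that lie inside the window in capitals, and they held none of the 5 motifs.
Lat (chr7:126369569-126369818, minus strand): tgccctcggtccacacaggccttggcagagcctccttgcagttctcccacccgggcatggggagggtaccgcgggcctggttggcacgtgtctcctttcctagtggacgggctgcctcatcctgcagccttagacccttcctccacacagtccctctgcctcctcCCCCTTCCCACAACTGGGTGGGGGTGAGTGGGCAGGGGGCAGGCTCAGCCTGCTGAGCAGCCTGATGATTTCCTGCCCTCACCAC

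Csk, the kinase that holds Lck and Fyn inactive, had the lowest adjusted p of all member windows. The window on chromosome 9 from 57633447 to 57633648 lies inside the gene, 12106 bp downstream of its start. It read 6.32, 7.21, 6.49 and 6.79 CPM in R26WT mice on day 3 and 6.59, 6.22 and 9.15 on day 7. In R26TIR1(F74G) mice it read 4.32, 4.399, 5.22 and 3.94 CPM on day 3 and 4.81, 4.71 and 4.45 on day 7. Again all 7 R26TIR1(F74G) mice were below all 7 R26WT mice, with a log2 fold change of -0.59 with both days (SE 0.12, adjusted p = 0.0603, by edgeR). Without R26TIR1(F74G) replicate 1 of day 3 the adjusted p was 0.0492, and leaving out each other mouse gave up to 0.229. The Csk start-site window had a log2 fold change of -0.35 on day 3 (adjusted p = 0.539) and -0.09 on day 7 (adjusted p = 0.959).

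Themis had the most regular difference in the other direction, in a pair of overlapping windows upstream of its start. The window on chromosome 10 from 28594106 to 28594307, 74154 bp upstream, read 11.3, 14.7, 14.6 and 11.3 CPM in R26WT mice on day 3 and 13.05, 10.1 and 7.797 on day 7. It read 17.1, 14.9, 16.5 and 15.1 CPM in R26TIR1(F74G) mice on day 3 and 16.3, 16.6 and 14.9 on day 7. All 7 R26TIR1(F74G) mice were above all 7 R26WT mice, by 0.41 on the log2 scale with both days (SE 0.10, adjusted p = 0.271, by edgeR) and by 0.58 on day 7 (SE 0.15, adjusted p = 0.394). At the Themis start site itself the log2 fold change with both days was -0.05 (95% interval -0.26 to 0.15). Counted over all 1674 member windows, all 7 R26TIR1(F74G) mice were lower in 2 windows and higher in 1, the 3 just described, where 0.0635% of the 240778 windows were lower in this way and 0.0527% higher. In the other Themis window of the pair, 74109 bp upstream, the groups overlapped over both days. There R26WT mice reached 13.03 CPM and R26TIR1(F74G) mice began at 12.23 CPM (log2 fold change 0.45, adjusted p = 0.250, by edgeR).

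Windows of Dgkz, Prkcq and Cd3d were lower in R26TIR1(F74G) mice on average without passing the test. A Dgkz window 8766 bp upstream of a start read 7.62, 9.33, 8.26 and 8.56 CPM in R26WT mice on day 3 and 5.75, 5.53, 4.99 and 7.08 in R26TIR1(F74G) mice. On day 7 it read 9.17, 8.72 and 8.85 CPM in R26WT and 7.22, 7.93 and 6.68 in R26TIR1(F74G) mice, so that the groups did not overlap within either day (log2 fold change with both days -0.43, SE 0.11, adjusted p = 0.322, by edgeR). The Prkcq window 45926 bp downstream differed by -0.44 on day 7 (adjusted p = 0.671) and -0.29 on day 3 (adjusted p = 0.632), and the groups overlapped on day 3. The Cd3d window 4912 bp downstream differed by -0.30 on each day (adjusted p = 0.780 on day 7 and 0.574 on day 3). With both days its log2 fold change was -0.30 (95% interval -0.47 to -0.13, adjusted p = 0.387).

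**Figure D4:**
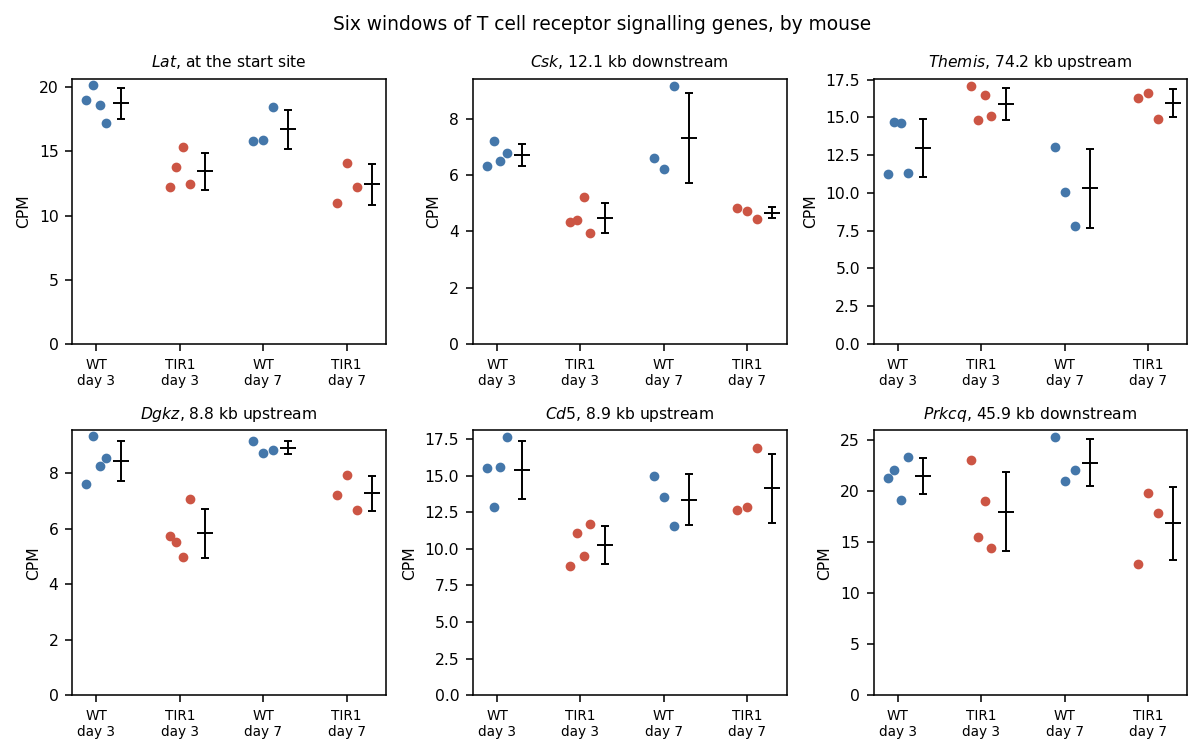
CPM of 6 windows in each R26WT (blue) and R26TIR1(F74G) (red) mouse on days 3 and 7, with the mean and SD of each group in black. In the Lat and Csk windows the 7 R26TIR1(F74G) mice lie below the 7 R26WT mice and in the Themis window above them, and in the Cd5 window the genotypes are apart on day 3 only.

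Other settings moved some of these windows past the threshold in the comparison with both days. DESeq2, the tool of the study, called 6 of the 242 member windows to which it gave an adjusted p after its own filter, where 0.505% of 30712 windows were called. They were the Lat window (adjusted p = 0.000995), the Dgkz window (0.0349), the pair at Themis (0.0315 and 0.0338) and an overlapping pair at Cd3d (0.0204 and 0.0323), and it gave the Csk window no adjusted p. With the minimum mean count raised to 50, edgeR called 4 of 594 member windows, those at Lat (adjusted p = 0.0457), Csk (0.0399) and Themis (0.0285 and 0.0295), where 0.124% of all were called. Offsets fitted by loess to mean abundance gave 2, both at Themis, where 0.0199% of all windows were called, and the same 2 with the replicate number as a block besides, where 0.0191% were. Leaving out R26TIR1(F74G) replicate 1 of day 3 gave 1, at Csk, where 0.0233% were called. At a threshold of 0.1 the count was 2, at Csk and Lat, where 0.0204% were called. With the prefix of the mouse names in the labels as a term, the log2 fold changes were -0.43 for Lat (adjusted p = 0.245), -0.59 for Csk (adjusted p = 0.151) and 0.45 for the Themis window (adjusted p = 0.316). R26WT mice on day 7 all had the prefix AC, whereas each other group held both AC and E, so prefix and genotype were not balanced.

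By role, the 415 windows of negative regulators had the most uneven counts between days. On day 7, 20 of the 413 tested were higher in R26TIR1(F74G) mice at an unadjusted p under 0.05 and 3 lower, whereas on day 3, 6 were higher and 27 lower, with median log2 fold changes of 0.05 and -0.12. Effectors had 4 higher and 18 lower windows on day 7 (1.15% and 5.16%) and 3 and 15 on day 3 (0.875% and 4.37%). The receptor chains had 2 higher and 6 lower on day 7 (2.08% and 6.25%) and 0 and 9 on day 3 (0% and 9.47%). The calcium arm had 10 higher and 7 lower on day 7 (4.42% and 3.10%), then 1 and 13 on day 3 (0.442% and 5.75%). Adaptors had 5 and 14 on day 7 (1.97% and 5.51%) and 9 and 11 on day 3 (3.54% and 4.33%), and the kinases 2 and 3 on each day. The phosphatase genes with Csk and Pag1 had 12 and 11 on day 7 (6.06% and 5.56%) and 4 and 7 on day 3 (2.05% and 3.59%). In both directions together, their share on day 7 was the highest of any role, at 11.6% against 5.95% of all windows. On day 3 it was 5.64% against 7.55%, and with both days 12.6% against 6.73%. Of the 23 such windows of this role on day 7, Ptprc held 10 and Pag1 9, in 8 and 6 separate regions. Ptpn6 held 3, Csk 1 and Ptpn22 0. Over all windows the shares were 2.75% higher and 3.2% lower on day 7 and 3.93% and 3.62% on day 3, against 4.84% and 0.726%, then 1.45% and 6.54%, for the negative regulators. The kinases, at 1.56% and 2.34% on day 7, were below the shares of all windows. These are counts without adjustment, and the lowest adjusted p in any role on a single day was 0.253.

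The negative regulator Cd5 is an inhibitory receptor whose level on T cells follows the strength of receptor signals. Of its 55 windows, 11 were lower on day 3 at an unadjusted p under 0.05 and 0 higher, where 3.62% of all windows were lower and 3.93% higher, in 9 separate regions at positions -34445 to 670 bp relative to the start, with log2 fold changes from -0.75 to -0.34. In all, 48 of the 55 had a log2 fold change below 0 on day 3, with a median of -0.23. Below 0 on that day were also 969 of 1653 member windows and 115044 of all 235515 windows. Other genes were as one-sided, with 20 of 21 windows below 0 at Csk and 16 of 18 above 0 at Bcl10. On day 7, 24 of the Cd5 windows were below 0 (against 121222 of all 237811 windows), with a median of 0.06. At an unadjusted p under 0.05, 2 overlapping Cd5 windows were higher, where 2.75% of all windows were. The window 8903 bp upstream, on chromosome 19 from 10747777 to 10747978, read 15.5, 12.8, 15.6 and 17.6 CPM in R26WT mice on day 3 and 8.81, 11.1, 9.54 and 11.7 in R26TIR1(F74G) mice. On day 7 it read 14.99, 13.5 and 11.5 CPM in R26WT mice and 12.7, 12.9 and 16.8 in R26TIR1(F74G) mice. The groups were apart on day 3, with a log2 fold change of -0.57 (SE 0.14, adjusted p = 0.346, by edgeR), and overlapped on day 7.

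**Figure D5:**
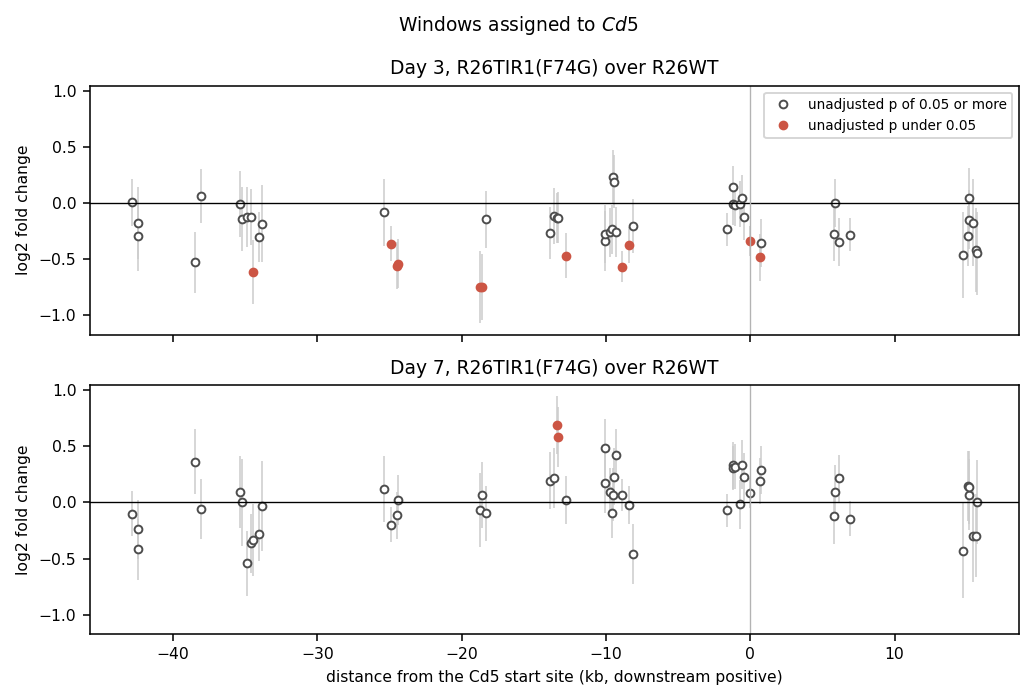
Log2 fold change, R26TIR1(F74G) over R26WT, with its standard error, of each of the 55 windows assigned to Cd5 against the distance of the window from the Cd5 start site in kb, on day 3 (top) and day 7 (bottom). Filled points have an unadjusted p under 0.05 and number 11 on day 3, all below 0, and 2 on day 7, both above 0.

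Among the 3 lowest p-values in each direction were also windows with few reads. A window 16614 bp upstream of Lcp2, with a mean count of 17.2, read 0.606, 0.661, 0.956 and 0.885 CPM in R26WT mice on day 3 and 2.698, 1.61, 1.12 and 2.17 in R26TIR1(F74G) mice (log2 fold change 1.19, SE 0.34, adjusted p = 0.440, by edgeR). On day 7 it read 0.711, 1.22 and 2.699 CPM in R26WT mice and 0.802, 0.894 and 1.42 in R26TIR1(F74G) mice. Its highest value on each day was in the shallowest library of that day, while the shallowest R26WT library of day 3 held its lowest, and the part of depth in the result was not tested. A Ptpn6 window 9217 bp downstream, with a mean count of 12.5, was highest in R26TIR1(F74G) replicate 1 of day 3, at 2.70 CPM (log2 fold change with both days 1.20, adjusted p = 0.355). Other windows that the rule named were in Ubash3b on day 3 (5112 bp upstream, -0.81), in Themis on day 3 (60157 bp upstream, 0.97) and in Dgka on day 7 (469 bp upstream, 0.76), with adjusted p of 0.443, 0.478 and 0.468.

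Whether the genotype difference itself changed between days was tested as an interaction, and the days were compared within each genotype, in a fit with a mean for each of the 4 groups. Of 1674 member windows 0 passed in each of these comparisons, where 0% of all 240778 windows did, and DESeq2 also called 0 in each. At an unadjusted p under 0.05, 92 passed the interaction (5.496%, against 6.32% of all windows), 60 higher (3.58%, against 2.75%) and 32 lower (1.91%, against 3.57%). Of the 184 start-site windows, 20 were higher (10.9%) and 1 lower (0.543%), where all start-site windows leaned the same way with 5.20% higher and 1.77% lower, and the medians were 0.20 and 0.09. The lowest p belonged to a window 76546 bp upstream of Fyn, at 5.03, 4.53 and 4.86 CPM in R26TIR1(F74G) mice and 2.52, 3.66 and 2.399 in R26WT mice on day 7, with overlapping groups on day 3 (log2 interaction 1.11, SE 0.30, adjusted p = 0.532, by edgeR). A Pag1 window 5142 bp downstream was also among the 3 lowest, with 7.75, 7.39 and 6.78 CPM in R26TIR1(F74G) and 5.69, 4.94 and 6.15 in R26WT mice on day 7 and overlapping groups on day 3 (0.72, SE 0.23, adjusted p = 0.662).

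Between days in R26WT mice, 113 of the 1674 windows had an unadjusted p under 0.05 (6.75%, against 5.17% of all), 33 higher on day 7 (1.97%, against 2.58%) and 80 lower (4.78%, against 2.59%). In R26TIR1(F74G) mice there were 101 (6.03%, against 6.87%), 58 higher (3.46%, against 2.87%) and 43 lower (2.57%, against 4%). The lowest adjusted p among members was 0.794 in R26WT mice and 0.334 in R26TIR1(F74G) mice. The latter was that of a Grap2 window 11800 bp upstream, which read 14.2, 6.01, 6.71 and 6.92 CPM on day 3 and 5.29, 4.47 and 4.604 on day 7 (log2 fold change -0.70, SE 0.19). Its highest value was that of the shallowest library.

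A second list of 30 genes of the same pathway (among them Cd28, Stim1, Orai1 and Pik3cd), fixed with the members, gave 984 windows at 29 genes. Of these, 0 passed the edgeR test with both days, on day 7 or on day 3. At an unadjusted p under 0.05, 32 were higher and 29 lower on day 7 and 16 higher and 34 lower on day 3 (3.27% and 2.97%, then 1.66% and 3.53%, against 2.75% and 3.2%, then 3.93% and 3.62% of all windows), and their medians were 0.02 and -0.03 on the log2 scale. With both days the counts were 27 and 39 (2.74% and 3.96%, against 3.16% and 3.57% of all windows), and the lowest adjusted p was 0.205.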

How the data were processed

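Per the study's methods and the submitters' processing notes, the authors aligned the reads with Bowtie2 to mm10, called peaks with MACS2, merged the reproducible ones into an atlas and ran featureCounts on its summits. The deposited table holds the resulting raw counts for each window and library, and window positions are given here as in the deposited names (GRCm38). The members and gene lists were chosen with earlier results of these data known. Start sites were RefSeq curated transcript starts where given (17491 of 21896 protein-coding genes, 36 of the 42 members) and gene ends otherwise, and exons and introns were not separated. Library sizes were normalized by TMM, and a window was tested if its counts in the libraries of a fit averaged 10 or more, by edgeR 4.0.16 (R 4.3.3), with Benjamini-Hochberg adjustment over all windows and a threshold of 0.05. DESeq2 1.42.0 was an alternative. Levels are CPM with TMM factors over the 14 libraries. Named windows are the most accessible start-site and distal window of each gene, any past the threshold and, for each comparison, the 3 with the lowest p in each direction. The tests were checked on simulated counts. Depth was 5653289 to 20184487 counts per library. Standard errors and intervals rest on the edgeR fit, which estimates the spread between mice of each window with information from other windows. Sequences were taken from RefSeq with Python 3.11.15.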

Additional observations from a re-analysis of the deposited data

Results flagged for a closer look

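Values of the windows described here, and the share of normalized counts at start sites, were examined for a mouse far from the other 3 of its group on day 3, by the gap to its nearest neighbour over the range of the group (Dixon's criterion). Of 82 groups examined over 40 windows and that share, 6 had such a mouse, and about 5% would by chance. R26TIR1(F74G) replicate 1 on day 3, the shallowest library, stood apart at the Grap2 window 11800 bp upstream of the start (14.2 CPM, the others 6.01 to 6.92) and at the Cd247 start site (16.9 CPM, the others 9.87 to 10.6). Among R26WT mice on day 3, replicate 1 was high at the Cd3e start site (14.5 CPM, the others 12.04 to 12.3) and replicate 4 at that of Cd3g (15.4 CPM, the others 10.6 to 11.1). R26WT replicate 3 was high in a Ppp3ca window 100000 bp downstream of a start (1.37 CPM, the others 0.693 to 0.794), and R26TIR1(F74G) replicate 4 in a Fyn window 85849 bp downstream (1.85 CPM, the others 1.26 to 1.34).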

How the results depend on the processing

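The count of member windows past the threshold was recomputed under 150 alternatives over the 6 comparisons and stayed at 0 in 144 of them. The 6 others were all in the genotype comparison with both days, which gave 6 with DESeq2, 4 with the minimum mean count raised to 50, 2 with loess offsets, 2 with loess offsets and the replicate block, 2 at a threshold of 0.1, and 0 to 1 with each mouse left out. The cause was not tested. Alternatives that kept only windows closer to a start site reused the adjusted p of the main fit, so their count of 0 was fixed in advance. With the replicate number as a block it gave 0 in each comparison. Same-numbered mice did not deviate together, since the correlation of their deviations from the group means was -0.0787 to 0.0652 over 7 pairs, and the block changed no count. Gene ends in place of transcript starts, chosen after seeing the data, gave 1665 member windows, 1610 of them shared. With the adjusted p of the main fit, 0 of them were called. The 36 named log2 fold changes, some of them of the same window in different comparisons, kept their direction in all 743 refits, and 13 of these refits passed the threshold, at windows of Themis, Lat, Csk and Dgkz. These windows were picked for their low p in the same libraries that the refits reuse. Their kept direction is therefore not an independent check. Of 1674 windows, 594 had a mean count of at least 50, and changes in the rest are less precisely bounded.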

Other observations

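Nfatc2 had named windows at 2 start sites, neither of which passed the adjusted test. At the upstream start, whose promoter holds the forkhead letters shown above, the window 163 bp before the start read 1.299, 1.06, 1.09 and 0.944 CPM in R26WT mice on day 3 and 0.3597, 0.5902, 0.969 and 0.483 in R26TIR1(F74G) mice. On day 7 it read 0.388, 0.814 and 0.2999 CPM in R26WT mice and 1.23, 1.37 and 0.911 in R26TIR1(F74G) mice. The groups were apart on day 7, with R26TIR1(F74G) mice higher, and overlapped on day 3 (log2 interaction 1.86, SE 0.59, adjusted p = 0.662 by edgeR, mean count 12.9). At the other start, the window 460 bp before the start had a log2 fold change of -0.60 between days in R26WT mice (SE 0.17, adjusted p = 0.794, by edgeR), from 8.58 ± 0.928 CPM (SD, n = 4) to 5.43 ± 1.34 CPM (SD, n = 3). In R26TIR1(F74G) mice it read 6.23 ± 0.932 CPM (SD, n = 4) on day 3 and 6.53 ± 0.598 CPM (SD, n = 3) on day 7.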
